A study of Mus musculus with 91 samples.

Results

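The genes described here form an amino acid supply module of 41 listed symbols: 9 amino acid transporters, 7 stress regulators around the transcription factor ATF4, 7 enzymes that make amino acids and 18 cytosolic tRNA synthetases. The rule is a list of symbols and uses no measured value; the symbols were matched to the Ensembl gene identifiers of 8 deposited count tables. Of the 41, 39 had counts in at least 1 table and 37 in all 8, out of 20378 gene identifiers in all. The transporter Slc7a11 and the enzyme Cth are not analysed here, Chac1 could be tested at 4 h alone, and the low-level enzyme Pycr1 was tested in 5 tables.

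Total RNA was sequenced from sorted splenic Tregs, regulatory T cells defined by the transcription factor Foxp3. The strain was C57/BL6 and carried RFP-FoxP3, a reporter that makes Foxp3-positive cells fluoresce red. Mice had received mouse IL-2 (mIL-2), a fusion protein of mouse IL-2 with the IL-2 receptor chain CD25 (mIL-2/CD25, called FP), or PBS. In the order PBS, IL-2, FP, the library numbers used were 4, 4, 4 at both 1.5 h and 16 h, then 3, 4, 3 at 4 h and 3, 3, 4 at 72 h. The 168 h table held PBS (3 libraries) and FP (4 libraries) only. A further 3 PBS and 3 IL-2 libraries came from an in vitro experiment at 1.5 h, and 3 and 3 from a high-dose IL-2 experiment whose dose and time the labels do not give. A restimulation experiment at 1.5 h held 3 libraries of mice given PBS alone, 3 of mice given a single FP injection, and 4 of mice given FP repeatedly. One treatment text, naming 20 µg of FP and 1.5 h, stands with every sample, the IL-2 samples included. The labels do not say that replicates were separate animals, so each p-value reflects the spread among the libraries, which may be technical. IL-2 and FP at one time point were set against the same PBS libraries.

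ATF4 is a transcription factor whose mRNA is translated more when amino acids are short or the kinases of the integrated stress response are active, and it turns on genes for amino acid uptake, amino acid synthesis and tRNA charging. In T cells, growth signals through mTORC1 also raise ATF4 and its targets, and activated T cells depend on the large neutral amino acid transporter encoded by Slc7a5 together with its partner chain Slc3a2. The tRNA synthetases join each amino acid to its tRNA before translation.

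Total counts per library ran from 12212262 to 46108114. All 7 Treg markers (Foxp3, Il2ra, Ctla4, Ikzf2, Tnfrsf18, Cd3e and Cd4) had counts in each table. Their sum was 3063 CPM or more (CPM, counts scaled to a common library size) in every library used. Myeloid markers summed to 44.8 to 871 CPM, B cell markers to 14.7 to 51.5 CPM, CD8 T and NK markers to 7.93 to 24.8 CPM and erythroid and platelet markers to 1.14 to 39.9 CPM. In bulk RNA, fewer cells of a type and less RNA per cell cannot be told apart. At 4 h, 2 further libraries had titles at odds with their treatment labels and were left out. In the restimulation table, library 1 of the single FP group stood apart from the other two, with Il2ra at 566 CPM against 1785 and 1708, where PBS libraries held 569 to 639 CPM. Its other groups were uneven too, with Ikzf2 at 1043, 1369 and 658 CPM in PBS and 1301, 426, 1513 and 645 CPM after repeated FP. After repeated FP, Dars stood at 98.7, 51.5, 91.8 and 72.7 CPM and Eprs at 157, 91.7, 150 and 132 CPM. The spread of a gene between replicate libraries was widest at 4 h and in the high-dose table, where edgeR's common biological coefficient of variation was 38.4% and 40.7%, against 4.48% in vitro and 11.2% to 27.0% elsewhere. Exons of Atf5, Psph, Aars, Cars, Hars and Yars overlap another gene, and those of Ddit3 and Mars overlap each other. Whether counting used strand is not given in the sources used here, so the values of these members are less certain.

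The C/EBP-ATF response element, through which ATF4 binds as a dimer with a C/EBP protein, has the core TGATGNAA. Promoter sequence from RefSeq (GRCm38.p6), the 250 bases before each transcription start, was at hand for 30 of the 41 members. The core, searched on both strands, stood in 7 of these 30 genes (23.3%), against 1056 of all 27025 genes in the RefSeq promoter table (3.91%). It was found in 3 of 11 synthetases, 2 of 6 enzymes, 1 of 7 regulators and 1 of 6 transporters, the last being Slc7a11. Of the counted members with a match, 5 are shown, to give the letters around the core beside the values below. Each line gives 30 bases in the direction in which the core reads TGATGNAA, with the match in capitals:
Asns: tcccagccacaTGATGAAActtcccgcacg
Pycr1: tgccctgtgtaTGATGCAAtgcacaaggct
Chac1: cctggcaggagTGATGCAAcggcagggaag
Gars: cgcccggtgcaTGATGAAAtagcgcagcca
Tars: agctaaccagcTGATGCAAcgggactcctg
The windows lie at chr6:7693214-7693243 on the minus strand (Asns), chr11:120643833-120643862, minus (Pycr1), chr2:119351038-119351067, minus (Chac1), chr6:55037960-55037989, minus (Gars) and chr15:11399655-11399684, plus (Tars). In the GENCODE vM21 annotation the Asns and Tars windows overlap an exon of their own gene, in its untranslated part, and the Pycr1, Chac1 and Gars windows overlap no annotated gene. The 5 sites begin between 15 bases (Tars) and 193 bases (Chac1) before the RefSeq start. Of the 5 sequences, 3 carry C and 2 carry A at the open position of the core. A match is a description of the letters only, and binding was not measured.

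The promoter of Gars, the glycine tRNA synthetase, is given whole as the one of these windows with no annotated gene over it and a match near the start. It runs over chr6:55037751-55038000 on the plus strand, and the capitals mark the core as it reads on this strand:
Gars: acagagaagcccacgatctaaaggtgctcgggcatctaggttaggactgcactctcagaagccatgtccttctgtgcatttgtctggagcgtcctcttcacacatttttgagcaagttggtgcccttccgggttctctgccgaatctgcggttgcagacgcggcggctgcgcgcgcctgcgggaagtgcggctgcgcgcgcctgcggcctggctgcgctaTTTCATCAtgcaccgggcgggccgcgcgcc
For comparison, the E-box CACGTG stood in 3 of 30 members (10%) and 6.86% of all genes, and the STAT core TTCNNNGAA, the kind of site bound by STAT5 downstream of IL-2, in 5 of 30 (16.7%) and 8.13%.

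In Tregs of PBS mice at 1.5 h, levels per kilobase of exon differed widely within the module. Ddit4, an inhibitor of mTORC1, had the highest level, 137 CPM per kb, followed by the glutamine and neutral amino acid transporter Slc1a5 at 43.7 and Atf4 at 39.1 CPM per kb. The synthetases lay between 4.71 CPM per kb (Cars, cysteine) and 35.2 (Vars, valine), and Slc7a5 at 8.40 CPM per kb. At the bottom stood 4 genes. Trib3, a pseudokinase that restrains ATF4, was at 1.17 CPM per kb and the asparagine synthetase Asns at 0.410. The alanine, serine and cysteine transporter Slc1a4 was at 0.317 and the proline synthesis enzyme Pycr1 at 0.123. In the 16 h PBS libraries these 4 were again the lowest in the module, and Ddit4, Slc1a5 and Atf4 the highest. Gene lengths were taken from GENCODE vM21, while the authors counted on an earlier release.

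At 1.5 h, IL-2 raised 15 of 18 synthetases, 4 of 8 transporters and the enzymes Asns, Psat1, Phgdh and Aldh18a1. Of 38 members tested, 25 rose and 1 fell, where 14.2% of all genes tested changed (edgeR, adjusted p below 0.01 over all genes). The median log2 change of the members was 0.55, against −0.0081 over all genes. By role (transporters, regulators, enzymes, synthetases), 4, 2, 4 and 15 members rose, with median log2 changes of 0.48, −0.018, 0.87 and 0.55. The groups of libraries did not overlap for 26 members, against 25.7% of all genes.

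Among transporters, Slc7a5 (ENSMUSG00000040010, chr8:121881150-121907694, minus strand, GRCm38) stood at 32.5, 27.1, 31.5 and 33.5 CPM in the PBS libraries and at 126, 105, 105 and 125 CPM after IL-2. Every IL-2 library lay over 3 times above the highest PBS library, a log2 change of 1.88 ± 0.13 (SE; edgeR adjusted p = 2.99e-07). The cationic amino acid transporter Slc7a1 rose by 1.18 ± 0.10 (edgeR adjusted p = 2.56e-06), from 84.1 to 96.3 CPM in PBS to 187 to 212 CPM. Slc1a4 (ENSMUSG00000020142, chr11:20302180-20332713, minus) went from 0.754 to 1.62 CPM in PBS to 2.47 to 4.24 CPM, a log2 change of 1.57 ± 0.31 (edgeR adjusted p = 0.00203). Slc7a6, which exchanges cationic for neutral amino acids, was the fourth transporter called, with a log2 change of 0.61. Slc3a2, the chain that pairs with the Slc7a5 product, was not called and its libraries overlapped (59.5 to 88.7 CPM in PBS and 62.9 to 86.5 CPM after IL-2), and the change of Slc1a5 was 0.09 ± 0.09.

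Among regulators, Trib3 (ENSMUSG00000032715, chr2:152337422-152344032, minus) had the largest change of the module. Its PBS libraries held 1.94, 2.01, 2.69 and 3.3 CPM and its IL-2 libraries 22.3, 20.8, 14.9 and 17.1 CPM, a log2 change of 2.91 ± 0.24 (edgeR adjusted p = 1.54e-06). Atf4 itself (ENSMUSG00000042406, chr15:80255184-80257541, plus) rose less, by 0.59 ± 0.096 (edgeR adjusted p = 0.000448), from 81.0, 111, 91.0 and 85.8 CPM to 146, 130, 142 and 141 CPM. Both genes separated the groups completely. Ddit4 (ENSMUSG00000020108, chr10:59949669-59951834, minus) was the one member that fell, by 1.43 on the log2 scale (SE 0.35, edgeR adjusted p = 0.00838), with 298, 164, 165 and 338 CPM in PBS and 156, 81.8, 80.5 and 42.3 CPM after IL-2. That call was lost in 7 of 13 alternatives, 5 of which left out 1 library (PBS 1, PBS 4, or IL-2 2, 3 or 4), with adjusted p up to 0.0293. Atf5 (0.10), Ddit3, which encodes the stress factor CHOP (−0.14), and the leucine sensor Sesn2 (−0.22) were not called.

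Among enzymes, Psat1, which catalyses the middle step of serine synthesis, stood at 24.5 to 26.5 CPM in PBS and 49.7 to 58.0 CPM after IL-2. The PBS libraries differed by little and the change was 1.08 ± 0.095 (edgeR adjusted p = 2.56e-06). Aldh18a1, the first enzyme of proline synthesis, rose by 1.14 ± 0.082, from 65.7 to 71.1 CPM to 136 to 159 CPM, and Phgdh, the first enzyme of serine synthesis, by 0.67 ± 0.11. Asns (ENSMUSG00000029752, chr6:7675169-7693254, minus) went from 0.899, 0.695, 1.23 and 1.66 CPM to 3.88, 3.3, 3.62 and 2.49 CPM, a change of 1.55 ± 0.33 (edgeR adjusted p = 0.00324). Its call was lost without PBS 1, PBS 2, IL-2 1 or IL-2 3, with adjusted p up to 0.0139, while the groups did not overlap.

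Among synthetases, Tars (threonine) rose most, by 1.11 ± 0.073 (edgeR adjusted p = 2.16e-07), from 49.5 to 52.3 CPM to 101 to 118 CPM, followed by Iars (isoleucine, 0.97) and Cars (cysteine, 0.91). The 3 that were not called were those of glutamine (Qars, −0.10), serine (Sars, 0.11) and valine (Vars, 0.14), and all 15 others lay between 0.41 (Lars, leucine) and 1.11.

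FP at 1.5 h raised members of each of the same roles: 9 of 38 members rose and 0 fell, against 6.67% of all genes, 4.39% higher and 2.28% lower. The median log2 change was 0.31, against −0.0079 over all genes. Groups did not overlap for 18 members, 17 of them higher, against 18.6% of all genes. The 9 were Slc7a5, Slc7a1, Trib3, Psat1, Aldh18a1 and the synthetases Tars, Rars (arginine), Iars and Nars (asparagine). Slc7a5 stood at 91.9, 75.4, 82.5 and 57.9 CPM after FP, all above the PBS libraries and below the IL-2 libraries, a log2 change from PBS of 1.30 ± 0.13 (edgeR adjusted p = 1.48e-05). Trib3 stood at 13.1, 15.3, 16.9 and 8.48 CPM, a change of 2.43 ± 0.24 (edgeR adjusted p = 1.5e-05), and Aldh18a1 changed by 0.93 and Tars by 0.76. Ddit4 had a log2 change of −1.51 and Atf4 one of 0.41, both just short of the threshold (edgeR adjusted p = 0.0107 and 0.0106). Slc1a4 (0.49) and Asns (0.56) were not called, with adjusted p of 0.379 and 0.335. DESeq2 called 16 members here, 15 higher and 1 lower, a count given without its share of all genes. FP replicate 2 carries another date in its sample name than the rest of the table, and without it edgeR called 8 members.

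Between FP and IL-2 at 1.5 h, edgeR called 0 of 38 members and 0% of all genes, with 970 genes of the whole table below an unadjusted p of 0.05, and DESeq2 called 0 members. Log2 differences of FP minus IL-2 were below 0 for 36 of 38 members, with a median of −0.20 against −0.0084 over all genes. Every FP library lay below every IL-2 library for 11 members, Slc7a5, Slc1a4, Psat1 and 8 synthetases among them, and 3.78% of all genes had groups that did not overlap in either direction. For Slc7a5 the difference was −0.58, with a 95% interval of −0.85 to −0.32, and for Slc1a4 −1.08 (−1.72 to −0.44). Asns differed by −0.99 (−1.66 to −0.32), Trib3 by −0.48 (−0.93 to −0.033), Atf4 by −0.18 (−0.39 to 0.025) and Ddit4 by −0.081 (−0.83 to 0.66). None of these intervals is adjusted for the number of genes.

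**Figure D1:**
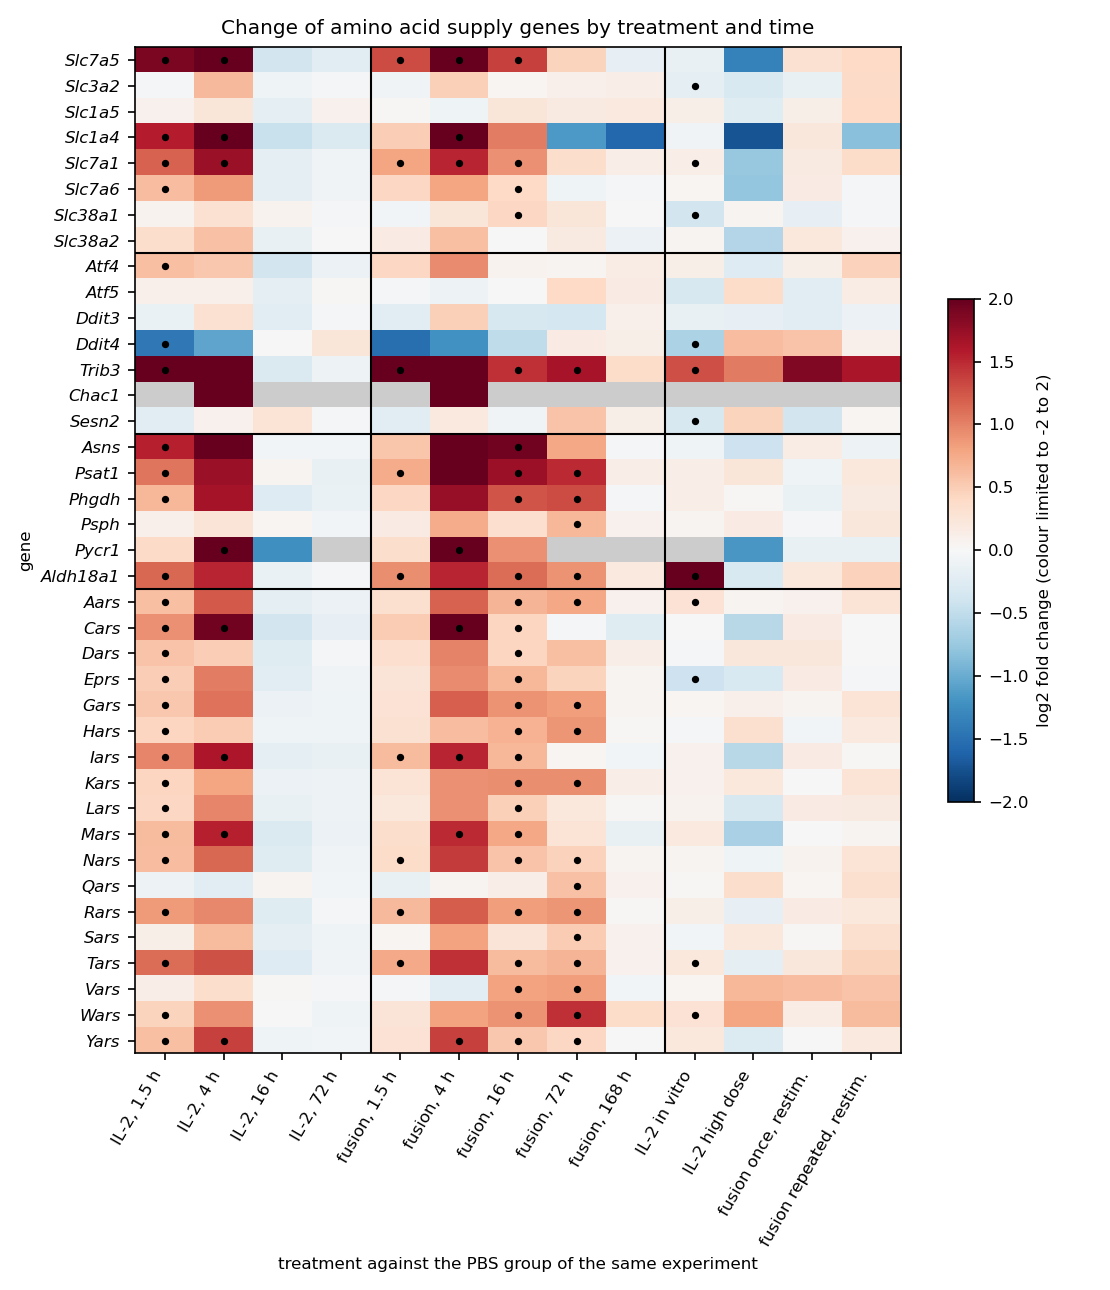
Log2 change of each of 39 members (rows, grouped by role) in each treated group against the PBS group of its own table (columns), with the colour scale limited to 2 in either direction, a dot where edgeR's adjusted p was below 0.01 and grey where a gene was not tested. Warm colours fill most enzyme and synthetase rows for IL-2 and FP at 1.5 h and 4 h and for FP at 16 h and 72 h, while the IL-2 columns at 16 h and 72 h hold no dot.

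At 4 h the transporter Slc1a4 and the enzyme Pycr1 had the largest log2 changes of any member in the comparisons with PBS, and the same 8 members were called after either treatment. For Pycr1 a rise was favoured by the filter on the deposited genes, as given below. After IL-2, 8 of 39 members rose and 0 fell, against 0.652% of all genes (0.567% higher, 0.0851% lower), with a median log2 change of 0.98 for members and 0.059 for all genes. After FP, 8 of 39 rose and 0 fell, against 0.913% of all genes (0.72% higher, 0.193% lower), with medians of 1.00 and 0.046. The 8 were Slc7a5, Slc1a4, Slc7a1, Pycr1 and the synthetases Cars, Iars, Mars (methionine) and Yars (tyrosine). Groups did not overlap for 24 members after IL-2 and 25 after FP, against 15.7% and 19.9% of all genes.

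Slc1a4 stood at 1.15, 1.43 and 0.657 CPM in PBS, at 11.4, 21.3, 13.8 and 13.9 CPM after IL-2 and at 12.3, 15.3 and 13.2 CPM after FP. Treated libraries were thus all at least 7 times above the highest PBS library, and the log2 changes were 3.80 ± 0.35 for IL-2 and 3.64 ± 0.36 for FP (edgeR adjusted p = 0.00119 and 0.00109). Slc7a5 went from 49.5, 34.7 and 29.7 CPM to 206, 246, 203 and 185 CPM after IL-2 and 192, 157 and 197 CPM after FP, log2 changes of 2.47 ± 0.21 and 2.26 ± 0.22. Pycr1 was close to the limit of detection in PBS, at 0.150, 0.399 and 0.179 CPM, and reached 1.96 to 3.99 CPM after IL-2 and 2.38 to 3.18 CPM after FP, a log2 change of 3.54 in both. The deposited genes exceed 0.5 CPM in at least 3 columns, and Pycr1 was below that level in every PBS library used. It entered the table through other libraries, so a rise was favoured in advance and its call is no independent support. Cars went from 25.8 to 33.0 CPM to 94.1 to 116 CPM after IL-2 and 113 to 133 CPM after FP, changes of 1.92 ± 0.15 and 2.1 ± 0.16.

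Of the 7 regulators none was called at 4 h with this fit. Trib3 stood at 3.41, 3.02 and 0.776 CPM in PBS, at 16.3, 10.8, 11.4 and 9.91 CPM after IL-2 and at 25.9, 24.4 and 11.3 CPM after FP, with changes of 2.32 ± 0.49 and 3.09 ± 0.52 (edgeR adjusted p = 0.0382 and 0.012) and no overlap. Chac1, a glutathione-degrading enzyme known as an ATF4 target, was scarce, at 0.0502 to 0.179 CPM in PBS, 0.251 to 0.701 CPM after IL-2 and 0.405 to 1.43 CPM after FP, and was not called (edgeR adjusted p = 0.174 and 0.0449). Like Pycr1, it passed the filter on the deposited genes through libraries other than the PBS libraries used. Atf4 changed by 0.53 and 0.94 and Ddit4 by −1.05 and −1.20, none of them called. Asns went from 2.41, 1.88 and 1.07 CPM to 6.05 to 12.4 CPM after IL-2 and 5.84 to 12.8 CPM after FP, changes of 2.31 ± 0.43 and 2.41 ± 0.45 that also missed the threshold (edgeR adjusted p = 0.0227 and 0.0181). FP minus IL-2 at 4 h gave 0 calls among 39 members and 0% of all genes (482 genes below an unadjusted p of 0.05; DESeq2 0 members; 3.83% of all genes had groups that did not overlap), with intervals of −0.64 to 0.22 for Slc7a5, −0.80 to 0.49 for Slc1a4, −0.22 to 1.74 for Trib3, −0.76 to 0.97 for Asns, −0.37 to 1.18 for Atf4 and −1.23 to 0.92 for Ddit4.

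The number of calls at 4 h depended on how the spread was estimated. Replicates with the same number deviated together in this table, and with the replicate number as a block 23 members were called after IL-2, all higher, and 25 after FP, 24 of them higher. In the blocked fit Trib3 (2.49 for IL-2, 3.14 for FP) and Asns (2.46 and 2.42) passed in both comparisons, and Atf4 rose (0.93) and Ddit4 fell (−1.17) after FP. Tags in the 4 h column names do not follow the replicate numbers (PBS 1 and FP 2 share one, as do PBS 2 and IL-2 2), and a block on these tags, chosen after seeing the data, gave 26 and 29 calls. The share of all genes called in these alternative fits is not given here, so these counts do not show whether members stood out. Per the sample ids, 2 of the 3 FP libraries were in lane L001 and all PBS libraries used were in L002: with the lane as a covariate, 5 members remained called after IL-2 and 0 after FP. Fits on the compared groups alone also gave 5 and 0, and without PBS replicate 2 edgeR called 0 after IL-2 and 2 after FP (Slc1a4 and Cars). Without PBS 1 the counts were 4 and 5 and without PBS 4 they were 4 and 4. Leaving out IL-2 2 or IL-2 3 left 5 calls after IL-2, and leaving out FP 1 or FP 2 left 5 after FP. These counts too are given without the share of all genes called.

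**Figure D2:**
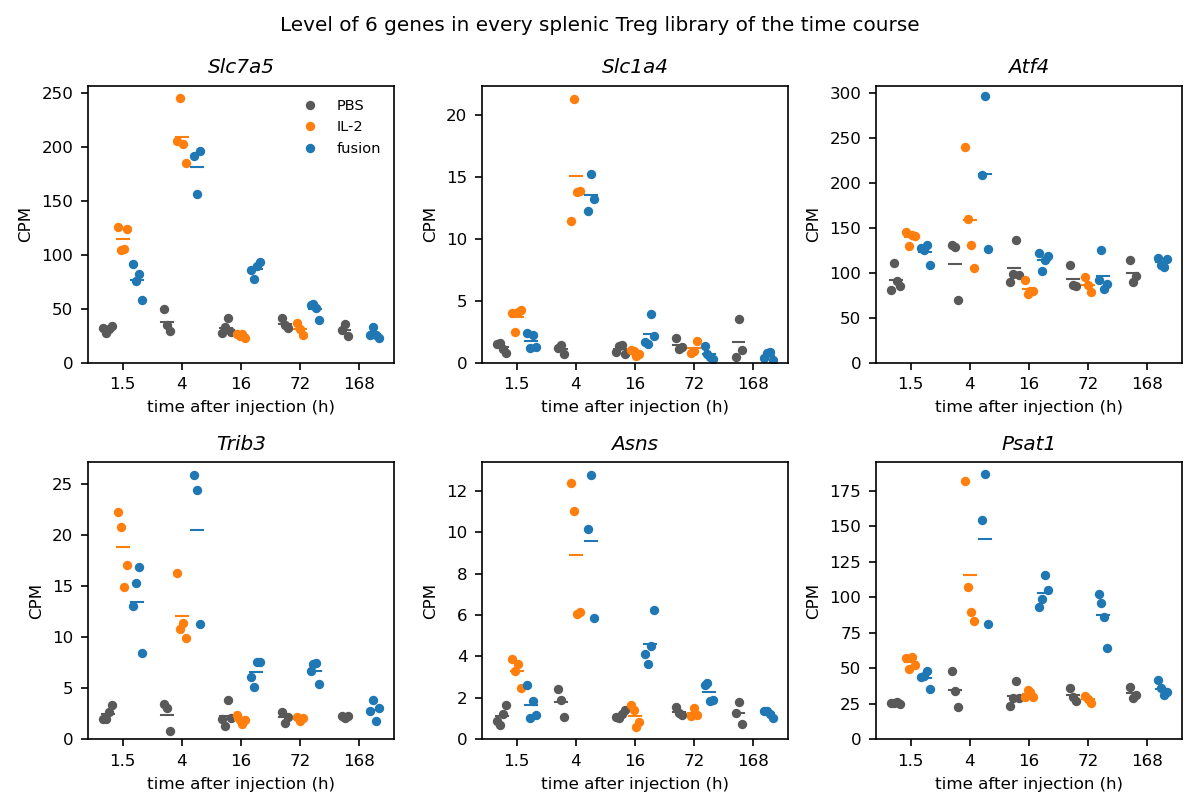
TMM-scaled CPM of Slc7a5, Slc1a4, Atf4, Trib3, Asns and Psat1 in every library by time (x axis, 1.5 h to 168 h), with points for PBS, IL-2 and FP libraries and a dash at each group mean. Both treatments stand above PBS at 1.5 h and 4 h for Slc7a5 and Trib3, and only FP does at 16 h, when IL-2 libraries of Slc7a5 lie between 22.4 and 26.8 CPM. Tables were normalized separately.

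At 16 h the treatments had separated: after IL-2 no member was called, while after FP most enzymes and nearly all synthetases were higher. After IL-2, edgeR called 0 of 38 members (0.35% of all genes; 2021 genes below an unadjusted p of 0.05; DESeq2 also called 0 members), and the median was −0.17 against −0.0062 over all genes. Slc7a5 stood at 26.8, 24.7, 26.8 and 22.4 CPM, below all 4 PBS libraries (27.2, 33.2, 41.4 and 28.4 CPM), a difference of −0.37 that was not called (95% interval −0.62 to −0.13, edgeR adjusted p = 0.2), where 5.35% of all genes had groups that did not overlap. Slc1a4 (−0.45), Atf4 (−0.36), Trib3 (−0.29, turning to 0.075 without PBS 3), Asns (−0.055) and Ddit4 (0.0041) were not called either.

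The fall of the IL-2 effect from 1.5 h to 16 h was tested as the difference of the log2 changes, each against its own PBS libraries. Of 38 members, 21 fell and 0 rose, against 10% of all genes (3.7% higher, 6.33% lower), with a median difference of −0.74 against 0.024. They were 4 transporters, 2 regulators, 3 enzymes and 12 synthetases. Trib3 fell by 3.20 on the log2 scale (edgeR adjusted p = 8.32e-06), Slc7a5 by 2.26 (3.9e-08), Slc1a4 by 2.02, Tars by 1.38, Slc7a1 by 1.37 and Aldh18a1 by 1.29. Atf4 fell by 0.96 (edgeR adjusted p = 0.000387). The differences for Asns (−1.62) and Ddit4 (1.42) missed the threshold, with edgeR adjusted p of 0.0135 and 0.0373.

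After FP at 16 h, 25 of 38 members rose and 0 fell, against 28.8% of all genes, 14.4% higher and 14.3% lower. The median log2 change was 0.65, against −0.051 over all genes. By role, 4 of 8 transporters, 1 of 6 regulators, 4 of 6 enzymes and 16 of 18 synthetases rose, with medians of 0.40, −0.030, 1.19 and 0.67. Of markers of other cell types, 2 of 6 B cell, 1 of 6 myeloid and 1 of 4 CD8 T and NK markers tested were called lower, and their part in the result was not tested. B cell markers summed to 28.9 to 41.7 CPM in PBS and 18.1 to 27.3 CPM after FP. Groups did not overlap for 27 members, all higher, against 34% of all genes. The sign of the regulators' median turned to 0.0070 with another scaling.

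The enzymes had the highest median of the 4 roles. Psat1 stood at 23.3, 28.8, 40.7 and 29.2 CPM in PBS and at 93.1, 98.5, 116 and 105 CPM after FP, a change of 1.71 ± 0.13 (edgeR adjusted p = 2.06e-08) with every FP library far above the highest PBS value. Asns went from 1.07, 1.01, 1.20 and 1.40 CPM to 4.10, 3.65, 4.52 and 6.23 CPM (1.93 ± 0.26, edgeR adjusted p = 1.63e-05). Phgdh rose by 1.26 and Aldh18a1 by 1.12, and Psph, which completes serine synthesis, had a change of 0.33 that was not called. Among synthetases Kars (lysine, 0.93), Gars (0.90) and Wars (tryptophan, 0.90) changed most, Kars from 73.3 to 116 CPM in PBS to 158 to 187 CPM. Qars (0.13) and Sars (0.25) were the 2 not called.

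Slc7a5 stood at 85.9, 77.4, 89.3 and 93.6 CPM after FP, clear of the PBS libraries, with a change of 1.36 ± 0.11 (edgeR adjusted p = 7.21e-08). Slc7a1 rose by 0.92 ± 0.06, the glutamine transporter Slc38a1 by 0.41 and Slc7a6 by 0.40, while Slc1a4 (1.03, edgeR adjusted p = 0.017) missed the threshold although its FP libraries lay above all PBS libraries. Trib3, at 6.05, 5.13, 7.53 and 7.61 CPM against 1.31 to 3.84 CPM in PBS, was the one regulator called (1.45 ± 0.24, edgeR adjusted p = 0.000142). Atf4 libraries overlapped, at 90.0, 98.3, 136 and 97.1 CPM in PBS and 122, 102, 114 and 119 CPM after FP (0.07, edgeR adjusted p = 0.627). Ddit4 had a change of −0.50 that was not called (edgeR adjusted p = 0.0451).

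Set directly against IL-2 at 16 h, FP was higher for 30 of 38 members and lower for 0, against 31.8% of all genes (16.8% higher, 14.9% lower), with a median difference of 0.81 against −0.064. The 30 were 6 transporters, 2 regulators, 5 enzymes and 17 synthetases, all but Qars. FP libraries lay above all IL-2 libraries for 32 members and below them for 2 (Ddit4 and Sesn2), against 47.4% of all genes in either direction. Of 6 B cell markers, 3 were called lower in the FP group, and their part in the result was not tested. Slc7a5 was higher by 1.73 (edgeR adjusted p = 6.18e-09), Pycr1 by 2.14 (0.00368), Asns by 1.98, Trib3 by 1.74 (2.91e-05), Psat1 by 1.66, Slc1a4 by 1.48 (0.00207), Rars by 1.07 and Mars by 1.06. Atf4 was higher by 0.43 (edgeR adjusted p = 0.00351), with 92.5, 76.7, 79.4 and 80.0 CPM after IL-2, and this call was lost without IL-2 4, FP 1 or FP 4 (adjusted p up to 0.0122). The Pycr1 call was lost without IL-2 2, IL-2 4, FP 3 or FP 4, and Ddit4 (−0.50) was not called.

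Between 1.5 h and 16 h the effect of FP changed for fewer members. Tested as a difference of log2 changes, 5 of 38 rose and 0 fell, against 3.75% of all genes (2.82% higher, 0.931% lower): Psat1 by 0.99 (edgeR adjusted p = 0.00144), Phgdh by 0.87, Vars by 0.86, Wars by 0.67 and Slc38a1 by 0.48. Slc7a5 differed by 0.09, Slc1a4 by 0.57, Atf4 by −0.32, Ddit4 by 1.03, Trib3 by −0.95 and Asns by 1.39, none called. The count was 2 without FP 3 of the 16 h table (Psat1 and Phgdh), 3 without FP 4, and 9 without PBS 3. The share of all genes called in those fits is not given, so the counts do not show whether members alone moved.

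At 72 h, IL-2 again gave no call among 37 members (0% of all genes; 82 genes below an unadjusted p of 0.05; DESeq2 also called 0 members), with changes from −0.28 to 0.25. Slc7a5 (−0.21), Slc1a4 (−0.28), Atf4 (−0.11), Trib3 (−0.10), Asns (−0.059) and Ddit4 (0.25, or −0.0054 without IL-2 1) all had edgeR adjusted p of 1.

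After FP at 72 h, serine enzymes, Trib3 and synthetases were still higher, and transporters were not called. Of 37 members 17 rose and 0 fell, against 30.4% of all genes (17.3% higher, 13.1% lower), with a median of 0.47 against −0.050. By role these were 0 of 8 transporters, 1 of 6 regulators, 4 of 5 enzymes and 12 of 18 synthetases, with medians of 0.18, 0.28, 0.90 and 0.59. Groups did not overlap for 24 members, 23 higher and 1 lower (Ddit3), against 46.9% of all genes. Without PBS replicate 3 edgeR called 11, and Psph, Nars, Qars, Rars, Sars and Yars were lost. The share of all genes called in that fit is not given here.

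Psat1 stood at 36.0, 30.0 and 27.0 CPM in PBS and 103, 96.1, 85.8 and 64.5 CPM after FP (1.49 ± 0.16, edgeR adjusted p = 1.57e-05), with no overlap. Phgdh rose by 1.30, Aldh18a1 by 0.90 and Psph by 0.66, while Asns, at 1.14 to 1.55 CPM in PBS and 1.83 to 2.73 CPM after FP, had a change of 0.78 (edgeR adjusted p = 0.0193). Trib3 went from 2.69, 1.59 and 2.16 CPM to 6.65, 7.35, 7.45 and 5.45 CPM (1.65 ± 0.21, edgeR adjusted p = 7.12e-05), and neither Atf4 (0.05) nor Ddit4 (0.16) was called. Wars, at 58.8, 50.8 and 46.7 CPM in PBS and 148, 146, 160 and 119 CPM after FP, rose most among synthetases (1.45 ± 0.12, edgeR adjusted p = 2.75e-06), followed by Kars (0.94) and Rars (0.89). Iars (0.05) and Cars (−0.02), both called after FP at 4 h and 16 h, overlapped between groups, Iars at 81.2 to 91.5 CPM in PBS and 83.2 to 94.6 CPM after FP. Slc7a5, at 41.1, 35.3 and 31.8 CPM in PBS and 53.6, 54.3, 50.5 and 39.2 CPM after FP, had a change of 0.45 ± 0.14 (edgeR adjusted p = 0.0231), and Slc1a4 one of −1.16 (0.0673).

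The summed level of 7 myeloid markers was 233 to 543 CPM in PBS libraries and 47.3 to 98.6 CPM after FP at 72 h, and 5 of the 7 were called lower. The part of this shift in the results at 72 h was not tested. The 7 Treg markers summed to 3156 to 3690 CPM in PBS and 5440 to 6067 CPM after FP, and 4 of the 7 were called higher. Means in PBS and after FP were 615 and 2032 CPM for Il2ra, 1123 and 1692 for Ikzf2, 53.8 and 108 for Ctla4, and 85.3 and 184 for Tnfrsf18. They differed less for Foxp3 (503 and 570 CPM), Cd3e (597 and 662) and Cd4 (403 and 450).

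Whether the FP effect differed between 16 h and 72 h was tested directly. Of 37 members 4 were lower at 72 h and 0 higher, against 10.9% of all genes (5.43% higher, 5.49% lower), so the share of members called was near the background. They were 3 transporters, Slc7a5 (−0.94 ± 0.19, edgeR adjusted p = 0.00243), Slc7a1 (−0.60, 0.00134) and Slc7a6 (−0.51, 0.00488), and the synthetase Iars (−0.65, 0.00125). The Slc7a6 call was lost under 6 of the alternatives that left out 1 library (16 h PBS 2, FP 3 or FP 4, or 72 h PBS 1, PBS 2 or FP 1), with adjusted p up to 0.0237. Slc1a4 (−2.22, edgeR adjusted p = 0.0171) and Asns (−1.18, 0.0182) missed the threshold, and Trib3 (0.17), Atf4 (−0.053) and Ddit4 (0.64) were not called. The median differences were −0.35 for transporters, −0.24 for enzymes and −0.0061 for synthetases, the last turning to 0.0068 with another scaling. Myeloid markers summed to 211 to 407 CPM after FP at 16 h, and 4 of 6 were lower in this test.

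**Figure D3:**
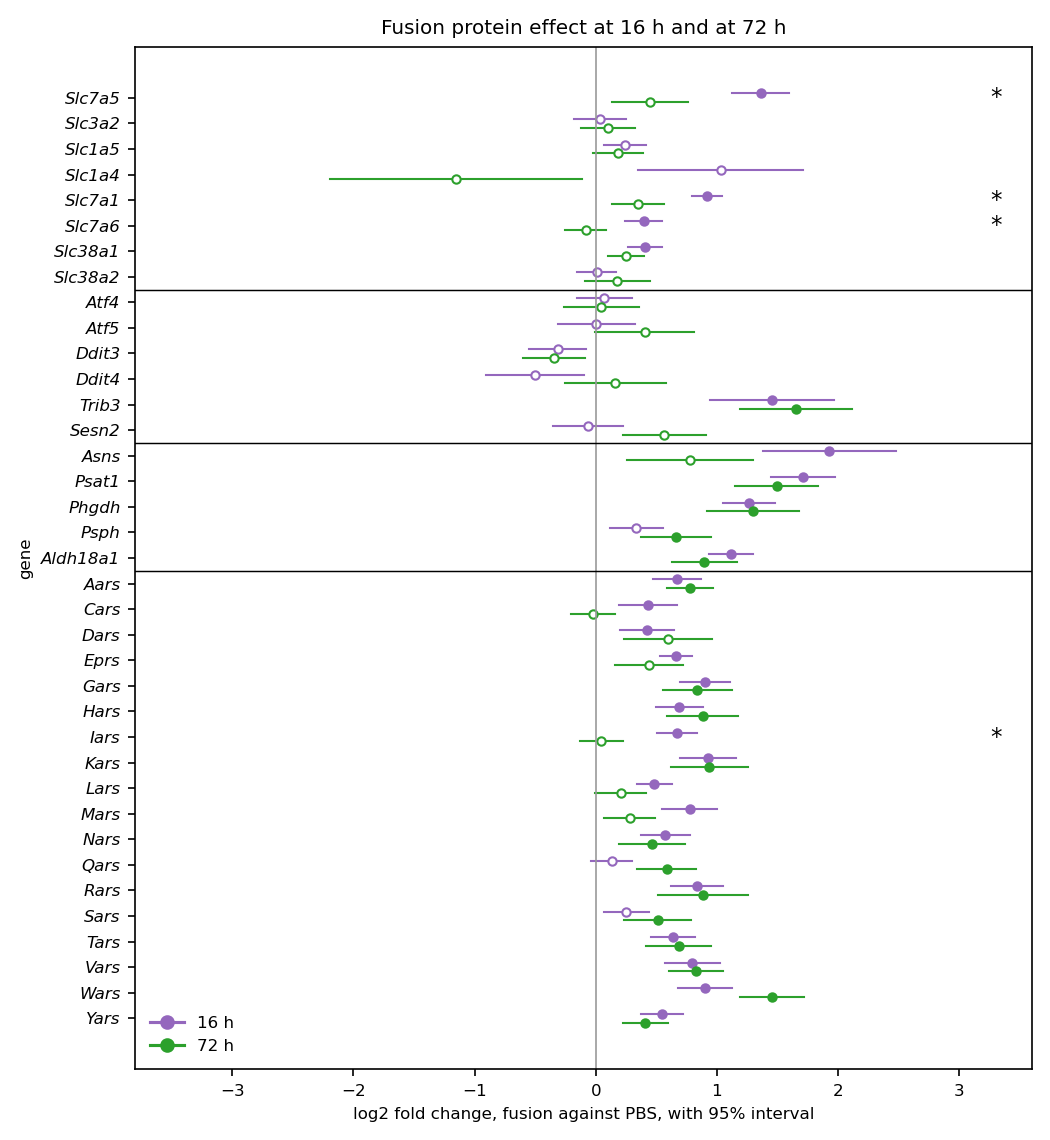
Log2 change after FP against PBS at 16 h and at 72 h for the members, with bars for 95% intervals, filled points where a change was called and an asterisk where the difference between times was called. Points of Slc7a5, Slc7a1, Slc7a6 and Iars lie lower at 72 h than at 16 h and carry asterisks, while the intervals of Psat1, Phgdh and Trib3 overlap between the times.

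At 168 h after FP, 0 of 37 members were called, against 1.21% of all genes, and 2582 genes of the whole table had an unadjusted p below 0.05. DESeq2 also called 0 members. Medians were 0.079 for members and −0.0023 for all genes. Slc7a5 stood at 30.2, 35.4 and 24.6 CPM in PBS and 25.4, 33.3, 25.4 and 23.1 CPM after FP, overlapping groups with a change of −0.16 (95% interval −0.51 to 0.19). Slc1a4 ranged from 0.466 to 3.52 CPM in PBS and 0.186 to 0.828 CPM after FP (−1.57, edgeR adjusted p = 0.335). Trib3 (0.36), Atf4 (0.16), Ddit4 (0.11) and Asns (−0.023) were not called. Set against 72 h, the FP effect was lower for 6 of 37 members and higher for 0, against 6.22% of all genes (1.57% higher, 4.65% lower): Psat1 (−1.33, edgeR adjusted p = 0.000978), Phgdh (−1.32, 0.00295), Wars (−1.06), Vars (−0.86), Hars (histidine, −0.83) and Aars (alanine, −0.66). Slc7a5 (−0.58), Slc1a4 (−0.38), Atf4 (0.14), Ddit4 (−0.02), Trib3 (−1.26, edgeR adjusted p = 0.0321) and Asns (−0.76) were not called. The count was 1 without PBS 3 of the 72 h table (Psat1), 2 without PBS 2, and 10 without FP 4 of that table. The share of all genes called in those fits is not given, so the counts do not show whether members alone moved. Myeloid markers summed to 161 to 231 CPM in PBS and 47.1 to 64.6 CPM after FP at 168 h, where 4 of them were called lower, and the part of this in the result was not tested.

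In vitro, IL-2 for 1.5 h changed the module in both directions, with Aldh18a1 far ahead. Of 37 members 6 rose and 5 fell, against 13.9% of all genes, with a median of 0.050 against −0.0021. Groups did not overlap for 11 members that were higher and 8 that were lower, against 31.6% of all genes. Aldh18a1 stood at 51.6, 46.6 and 48.0 CPM in PBS and 264, 269 and 261 CPM after IL-2, a change of 2.44 ± 0.041 (edgeR adjusted p = 3.48e-25). Trib3 rose from 3.08, 3.43 and 3.4 CPM to 7.93, 7.88 and 8.36 CPM (1.29 ± 0.13, edgeR adjusted p = 9.48e-09), and the synthetases Aars (0.30), Wars (0.29) and Tars (0.21) and the transporter Slc7a1 (0.13) rose by little. The Slc7a1 call (edgeR adjusted p = 0.00961) was lost in 8 of 11 alternatives, among them each of the 6 fits that left out 1 library, with adjusted p up to 0.053. Of the 11, 1 was the same fit read at a looser threshold, which keeps every call.

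Those that fell in vitro were Ddit4, from 34.3, 34.0 and 37.5 CPM to 24.2, 22.5 and 21.6 CPM (−0.63 ± 0.066, edgeR adjusted p = 1.93e-08), the bifunctional glutamate and proline synthetase Eprs (−0.41), Slc38a1 (−0.36), Sesn2 (−0.32) and Slc3a2 (−0.19). Slc7a5 was at 116, 105 and 105 CPM in PBS and 97.1, 99.9 and 96.8 CPM after IL-2, groups that did not overlap but whose change of −0.15 was not called (edgeR adjusted p = 0.014). Atf4, at 255, 229 and 248 CPM in PBS, changed by 0.12 (edgeR adjusted p = 0.0479), and Slc1a4 (−0.06) and Asns (−0.088) were not called. PBS libraries of the in vivo table at the same time, which was normalized separately, held 27.1 to 33.5 CPM of Slc7a5 and 81.0 to 111 CPM of Atf4.

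The effect of IL-2 in vitro was set against that in vivo at 1.5 h as a difference of log2 changes, each against its own PBS. It was lower in vitro for 15 of 37 members and higher for 1, against 5.17% of all genes, with a median of −0.46 against −0.018. The 1 higher was Aldh18a1 (1.27 ± 0.095, edgeR adjusted p = 7.76e-07). Lower were 4 transporters, Trib3, 2 enzymes and 8 synthetases, with Slc7a5 (−2.05 ± 0.12, edgeR adjusted p = 1.16e-07), Slc7a1 (−1.07), Trib3 (−1.65), Asns (−1.66, 0.00475), Psat1 (−0.97), and Cars, Eprs and Tars (−0.92 each) among them. The Asns call was lost in 8 of 16 alternatives, each leaving out 1 library. Slc1a4 (−1.66, edgeR adjusted p = 0.0105), Atf4 (−0.50, 0.0219) and Ddit4 (0.77) were not called. The experiments differ in more than the place of treatment, and table and setting cannot be told apart. The joined fit used the same spread per gene for both tables, whose common biological coefficients of variation were 4.48% in vitro and 16.3% in vivo. Its SEs and p-values thus do not reflect the spread of each table alone.

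**Figure D4:**
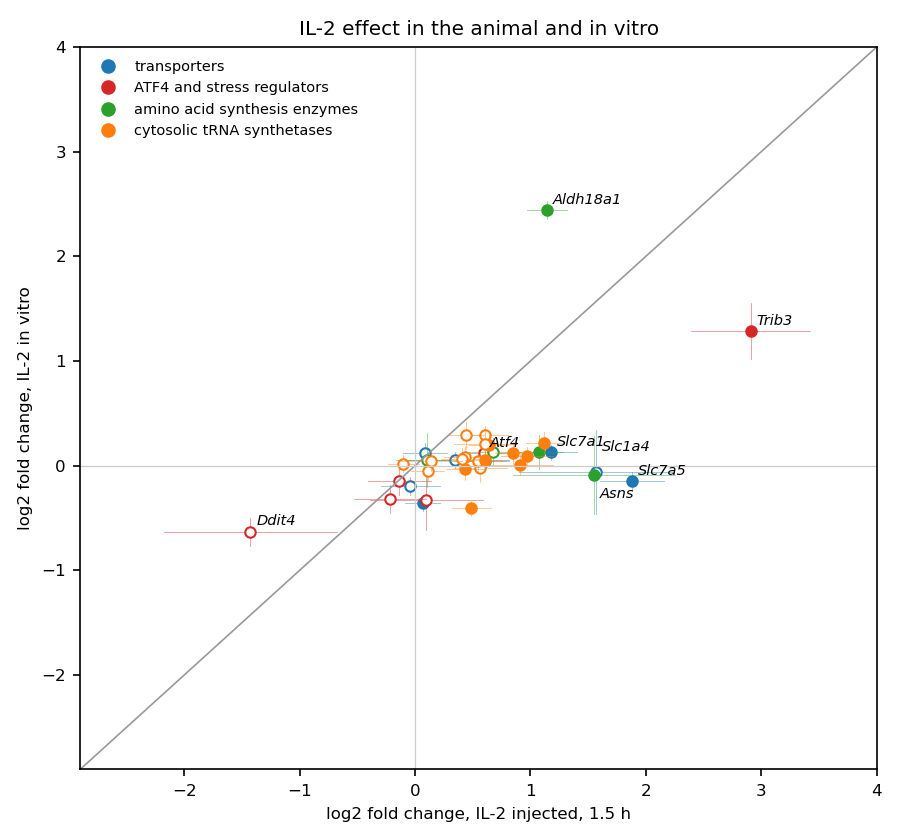
Log2 change after IL-2 for 1.5 h in vivo (x axis) and in vitro (y axis) for the members tested in both tables, with thin lines for 95% intervals, filled points where the difference was called and a diagonal where both would be equal. Most called points lie below the diagonal near 0 on the y axis, Slc7a5 among them, and Aldh18a1 alone of the filled points lies above it.

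High-dose IL-2 gave 0 calls among 38 members and 0% of all genes, with 2743 genes below an unadjusted p of 0.05, and DESeq2 called 1 member, Slc7a5, lower. Slc7a5 stood at 41.6, 36.7 and 53.3 CPM in PBS and 18.2, 21.0 and 12.5 CPM after IL-2, groups that did not overlap, with a change of −1.35 ± 0.25 (95% interval −1.95 to −0.75, edgeR adjusted p = 0.0534). Groups did not overlap for 10 of 38 members, all lower after IL-2, against 24.4% of all genes in either direction. The count of members was thus near the background, and the share of all genes that were lower without overlap is not given here. Transporters had a median of −0.67, with 7 of 8 values below 0, while regulators had 0.41, enzymes −0.14 and synthetases −0.015, the last turning to 0.068 with another scaling. Slc1a4 (−1.72), Atf4 (−0.25), Ddit4 (0.62), Asns (−0.41) and Trib3 (1.03) were not called. Ddit4 stood at 183, 100 and 212 CPM in PBS and 102, 459 and 200 CPM after IL-2, and without IL-2 2 its difference was −0.10 and that of Trib3 0.53. Trib3 libraries overlapped at 3.86, 2.00 and 2.69 CPM in PBS and 3.63, 9.41 and 4.50 CPM after IL-2. Myeloid markers summed to 76.0 to 95.1 CPM in PBS and 45.4 to 68.8 CPM after IL-2 in this table, with none of the 7 called, and their part in the result was not tested.

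In the restimulation table edgeR called no member in any of the 3 comparisons, against 0.0111% of all genes for single FP, 0.629% for repeated FP and 0.585% for repeated against single FP. At an unadjusted p of 0.05 these comparisons held 1608, 3900 and 3540 genes of the whole table. Trib3 stood at 2.17, 1.74 and 1.93 CPM in PBS, 2.52, 9.84 and 8.68 CPM after single FP and 6.80, 6.47, 5.27 and 5.61 CPM after repeated FP. Every FP library lay above the PBS libraries, by log2 changes of 1.84 (edgeR adjusted p = 0.112) and 1.63 (0.0467), and DESeq2 called Trib3 alone in both comparisons. Without library 1 of the single group edgeR called Trib3 there, and a fit on PBS and repeated FP alone called it too.

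Slc1a4 was not called in these comparisons, at 1.20 to 1.77 CPM in PBS, 1.47 to 2.1 CPM after single FP and 0.567 to 1.12 CPM after repeated FP. The repeated libraries lay below all others, with changes of −0.84 against PBS and −1.07 against single FP (edgeR adjusted p = 0.107 and 0.0685). For single FP, differences from PBS were 0.30 for Slc7a5, 0.23 for Slc1a4, 0.11 for Atf4, 0.57 for Ddit4 and 0.14 for Asns. Without library 1 of the single group they were 0.54, 0.28, 0.046, −0.22 and 0.24, and 2.25 for Trib3 (edgeR adjusted p = 0.00287). Ddit4 stood at 275 CPM in that library and at 78.8 and 94.4 CPM in the other two, so the direction of its difference rests on 1 library. For repeated FP they were 0.40 for Slc7a5, 0.45 for Atf4, 0.10 for Ddit4 and −0.11 for Asns. Repeated minus single FP gave 0.10 for Slc7a5, 0.34 for Atf4, −0.47 for Ddit4, −0.21 for Trib3 and −0.25 for Asns. Without library 1 of the single group these were −0.14, 0.41, 0.32, −0.62 and −0.34, and −1.12 for Slc1a4, and edgeR again called no member. Synthetase medians were 0.12 and 0.24 for single and repeated FP, against 0.0026 and −0.020 over all genes. Myeloid markers summed to 75.6 to 134 CPM in PBS, 113 to 125 CPM after single FP and 44.8 to 83.3 CPM after repeated FP, and their part in these values was not tested.

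Other genes of the same pathways were followed as lists, chosen like the members with earlier results known. At 1.5 h, 14.2% of all genes tested were called in either direction after IL-2 and 6.67% (4.39% higher) after FP. At 16 h after FP 14.4% were called higher, and at 72 h 17.3% higher and 13.1% lower. The counts below stand against these shares, with no higher-only share given here for IL-2 at 1.5 h. Of 5 genes of the phenylalanine synthetase and the synthetase complex scaffolds, 4 rose after IL-2 at 1.5 h, Eef1e1 by 1.74 and Aimp2 by 1.12, 3 after FP at 1.5 h and 4 after FP at 16 h. Of 17 mitochondrial tRNA synthetases, which charge tRNA inside mitochondria, 2 rose after IL-2 at 1.5 h (Mars2 0.53, Ears2 0.43) and 1 after FP at 16 h. The share at 16 h was no higher than that of all genes called higher. After FP at 72 h Sars2 rose by 0.77 while 4 fell (Mars2 −0.64 and Ears2 −0.59 among them). Of the other genes of the eIF2 and ATF4 pathway, 4 of 14 rose after IL-2 at 1.5 h, 5 of 15 after FP at 16 h and 8 of 16 after FP at 72 h, with 1 lower. Shmt2, which makes one-carbon units from serine in mitochondria, rose by 0.81 after IL-2 at 1.5 h, 2.02 at 4 h and 1.50 after FP at 16 h. The stress genes Stc2 (2.78) and Nupr1 (2.44) rose after FP at 72 h from low levels. In PBS Stc2 held 0.42 to 0.53 CPM and Nupr1 0.085 to 0.25 CPM, against 2.87 to 3.96 and 0.65 to 0.94 CPM after FP. Nupr1, one of the 16 pathway genes counted at 72 h, was below 0.5 CPM in every PBS and IL-2 library of that table. It passed the filter on the deposited genes through FP libraries alone, so a rise was favoured in advance.

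The branched-chain aminotransferase Bcat1 rose by 1.25 after IL-2 at 1.5 h, 2.38 at 4 h and 1.67 after FP at 16 h. Among 16 genes of amino acid sensing by mTORC1, the Rag GTPase Rragd rose by 2.39 after IL-2 at 1.5 h and 1.24 after FP at 16 h, while the sestrin gene Sesn1 fell by 1.44 and 1.06. Of 10 genes of the unfolded protein response of the endoplasmic reticulum, 4 rose after IL-2 at 1.5 h (Xbp1 2.03), 8 after FP at 16 h (Sdf2l1 1.76) and 8 after FP at 72 h (Sdf2l1 2.05), and none fell. Among other amino acid transporters, 1 of 10 rose (Slc36a4 0.51) and 5 fell after FP at 72 h, led by Slc7a2 (−4.39) and Slc7a8 (−4.20), beside the lower myeloid markers given above.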

How the data were processed

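Reads were aligned with STAR 2.5.0 to GRCm38 and counted per gene with featureCounts 1.5.0, per the submitters' processing notes; the series' design text names GENCODE M13. The authors deposited 8 tables of raw gene counts, in which every gene exceeded 0.5 CPM in at least 3 columns. The 16 second sequencing runs were summed with the first, giving 75 libraries from 91 samples. At 4 h, 2 libraries with contradicting labels (titled PBS 3 and FP 3) entered no comparison.

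Counts were scaled by TMM and tested per table with edgeR 4.0.16 (quasi-likelihood, filterByExpr, R 4.3.3), all groups sharing one spread, with Benjamini-Hochberg adjustment over all genes tested. A gene was called below an adjusted p of 0.01, the threshold the series' design text names. Differences between effects came from joined tables, each effect keeping its own PBS libraries and both tables sharing the same spread per gene. SE and 95% intervals, on the log2 scale, were derived from edgeR's log2 change and quasi-likelihood F statistic, and are approximate. The procedure was tested on simulated counts of independent libraries, with no block or lane. The outcome is not given here, and such counts do not cover replicates that deviate together. Alternatives were DESeq2 1.42.0, RLE scaling, no filter, a replicate block, fewer groups and each library left out. For the 168 h, in vitro and high-dose tables, the same fit read at a looser threshold stood in place of fewer groups.

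Members, pathway lists, and Treg, myeloid, B cell, CD8 T and NK, and erythroid and platelet marker lists were chosen with earlier results of these data known. Named in every comparison were Slc7a5, Slc1a4, Atf4, Trib3, Asns and Ddit4, and otherwise up to 3 called members per role and direction with the largest change. Same-numbered libraries correlated above 0.1 in every pair for IL-2 at 4 h (r 0.388 to 0.810), FP at 4 h (0.156 to 0.825) and IL-2 at 72 h (0.310 to 0.436), the numbers coming from the sample titles. A sequence and a pathway gene are not reported here.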

Additional observations from a re-analysis of the deposited data

Results flagged for a closer look

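Among 379 tests for a single library apart from the rest of its group, 16 gave a value past Dixon's limit, where chance gives about 19 (1 in 20). In PBS at 1.5 h, Dars was 69 CPM in replicate 4 (others 82.9 to 83.3), Kars 95.6 in replicate 4, Sars 112 in replicate 4, Qars 89.2 in replicate 3 and Tars 52.3 in replicate 1. After IL-2 at 1.5 h, replicate 2 stood low for Slc1a4 at 2.47 CPM (others 4.05 or more) and for Sesn2 at 6.97 CPM, and replicate 1 high for Wars at 76.6 CPM. After FP at 1.5 h, Nars was 91.4 CPM in replicate 4. After IL-2 at 4 h, replicate 1 held 34.6 CPM of Psph (others up to 16.6) and 94.1 CPM of Cars (others 114 to 116). After IL-2 at 16 h, Ddit3 was 17.6 CPM in replicate 4. After FP at 72 h, Atf5 was 5.55 CPM in replicate 2 and Aars 100 CPM in replicate 4, and at 168 h Slc3a2 was 71.1 CPM in replicate 4 and Atf5 2.77 CPM in replicate 3.

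Tests of a difference between effects called members in 5 cases. The IL-2 effect differed between 1.5 h and 16 h for 21 members, against 10% of all genes, and between in vivo and in vitro for 16, against 5.17%. The FP effect differed between 1.5 h and 16 h for 5, between 16 h and 72 h for 4, and between 72 h and 168 h for 6. Shares of all genes were 3.75%, 10.9% and 6.22% in the same order, and the 16 h to 72 h count lay near its share.

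One library left out of the comparisons, titled as FP replicate 3 at 4 h but labelled as injected with PBS, held 213 CPM of Slc7a5, where the highest PBS library held 49.5 CPM. It also held 17.1 CPM of Slc1a4 (PBS up to 1.43), 14.4 CPM of Trib3 (up to 3.41), 7 CPM of Asns (up to 2.41) and 139 CPM of Atf4 (up to 131). The other library left out, titled as PBS replicate 3 but labelled as injected with mIL-2/CD25, held 28.4 CPM of Slc7a5 and 0.613 CPM of Slc1a4. Treg markers summed to 3418 CPM in it and to 5183 CPM in the one titled FP, where PBS libraries held 3409 to 4101 CPM and FP libraries 5182 CPM or more.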

How the results depend on the processing

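Over 186 called member changes and 2614 alternative values, 2380 kept their direction and call, 234 kept the direction without the call, and 0 reversed. For each in vitro call the kept values include the same fit read at a looser threshold, which could not lose a call. The counts of members called in this paragraph are given without the share of all genes called under each setting. With DESeq2 the number of members called was 16 for FP at 1.5 h, 20 for IL-2 and 21 for FP at 4 h, and 1 each for high-dose IL-2, single FP and repeated FP. At 4 h the replicate block gave 23 for IL-2 and 25 for FP, placing the libraries of contradicting labels by title gave 19 and 20, the compared groups alone 5 and 0, the lane as a covariate 5 and 0, and the column tag as a block, chosen after seeing the data, 26 and 29. The compared groups alone gave 1 for repeated FP. At 72 h after IL-2, the block called 0 members. In the other comparisons with PBS the replicate block moved no count beyond 1.5 times, and there the numbers were taken as shared names only. In the 72 h column names, however, FP 1 and FP 2 both stand between PBS 1 and PBS 2. A block in that order was not fitted, so any deviation shared in that order was not taken into account for FP at 72 h. Leaving out 1 library in turn gave 0 to 8 for IL-2 at 4 h, 2 to 7 for FP at 4 h, 11 to 22 for FP at 72 h and 0 to 1 for single FP. It gave 2 to 9 for the FP effect from 1.5 h to 16 h and 1 to 10 for that from 72 h to 168 h. The cause was not tested. Scaling moved the members' median by at most 0.0815 (log2). Wide spread at 4 h and in the high-dose table limits which changes could be called.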
